A study of Homo sapiens with 4 samples.

Results

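Chemokines are small secreted proteins that guide migrating cells along gradients of concentration, and those of the CXC family carry a single residue between the paired cysteines near their amino terminus. The 10 CXC chemokines examined here were *CXCL1*, *CXCL2*, *CXCL3*, *CXCL5*, *CXCL6*, *CXCL8*, *CXCL10*, *CXCL11*, *CXCL14* and *CXCL16*. The set was selected on the log2 ratio of 5-azacytidine over vehicle in MG cells, where *CXCL1* and *CXCL2* stood among the highest genes, so that increase is a description of the choice and not a finding. Their probes were found through the RefSeq accession of each probe, which gave 13 probes of 50594 on the array, and 6 of the 10 genes had a probe that passed the filters, among 18919 genes or unnamed transcripts.

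The cells came from HCT116, an established line of human colorectal carcinoma. MG cells are its subpopulation that crossed the membrane of a transwell chamber in repeated rounds of migration, and non-MG cells are those that stayed on the upper side, so each is a selected culture of 1 cell line. Cells of each kind received 5 µM 5-azacytidine or vehicle for 48 h, and RNA of each of the 4 cultures was hybridized to its own one-colour Agilent array. Each condition therefore had 1 array and no replicate, no test between conditions was possible, and every difference below compares arrays rather than conditions.

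Among these chemokines, CXCL1, CXCL2, CXCL3, CXCL5, CXCL6 and CXCL8 share a glutamate-leucine-arginine motif before the cysteines, bind the receptor CXCR2 and attract neutrophils, and colon epithelium and colorectal tumours are known to release several of them during inflammation. CXCL10 and CXCL11 are induced by interferon and bind CXCR3 on T cells, CXCL14 is made constitutively by many epithelia, and CXCL16 is a membrane-bound ligand of CXCR6 that proteases can release. Transcription of the neutrophil-attracting group is classically switched on by NF-kB, which acts downstream of IL-1, TNF and Toll-like receptors. 5-Azacytidine is a cytidine analogue that is built into RNA and DNA and traps DNA methyltransferases, so that methylation is lost as cells divide.

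The sequences just before the transcription starts are shown because a 9-base match to the NF-kB consensus, GGAATTTCC, lay in the promoter window of all 8 of these genes on chromosome 4, the ones that responded and the ones that stayed dim. The 140 bases before the start of the 6 neutrophil-attracting genes are given in the direction of transcription, from RefSeq on GRCh38.p14, with the motif in capitals.

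CXCL1 (chr4:73869253-73869392, plus strand): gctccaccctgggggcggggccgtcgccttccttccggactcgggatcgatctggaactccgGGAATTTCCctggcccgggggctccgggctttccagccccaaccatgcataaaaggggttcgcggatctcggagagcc
CXCL2 (chr4:74099196-74099335, minus strand): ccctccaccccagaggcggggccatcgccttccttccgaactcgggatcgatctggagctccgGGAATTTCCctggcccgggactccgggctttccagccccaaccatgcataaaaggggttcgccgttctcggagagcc
CXCL3 (chr4:74038690-74038829, minus strand): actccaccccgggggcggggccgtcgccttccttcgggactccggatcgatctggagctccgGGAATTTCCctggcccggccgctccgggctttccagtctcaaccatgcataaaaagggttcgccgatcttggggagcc
CXCL5 (chr4:73998678-73998817, minus strand): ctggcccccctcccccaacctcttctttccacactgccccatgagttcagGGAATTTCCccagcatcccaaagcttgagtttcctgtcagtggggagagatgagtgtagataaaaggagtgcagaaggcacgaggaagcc
CXCL6 (chr4:73836538-73836677, plus strand): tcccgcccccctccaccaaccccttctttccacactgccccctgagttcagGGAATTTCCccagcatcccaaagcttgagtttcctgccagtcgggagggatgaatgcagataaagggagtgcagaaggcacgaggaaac
CXCL8 (chr4:73740429-73740568, plus strand): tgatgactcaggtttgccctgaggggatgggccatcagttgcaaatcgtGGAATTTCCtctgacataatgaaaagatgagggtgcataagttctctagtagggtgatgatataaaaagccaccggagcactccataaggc

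The motif began 78 bases before the start in *CXCL1* and *CXCL3*, 77 bases before it in *CXCL2*, 90 bases in *CXCL5*, 89 bases in *CXCL6* and 91 bases in *CXCL8*. In *CXCL10* and *CXCL11* it lay on the opposite strand, 176 and 75 bases before the start, and *CXCL14*, on chromosome 5, held none. RefSeq promoter windows, which run from 250 bases before the start to 50 after it, were matched for 9 of the 10 genes, and *CXCL16* was not among them. Of all 35116 windows, 0.461% held GGAATTTCC on either strand. A match is a description of the letters and does not show binding.

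**Figure D1:**
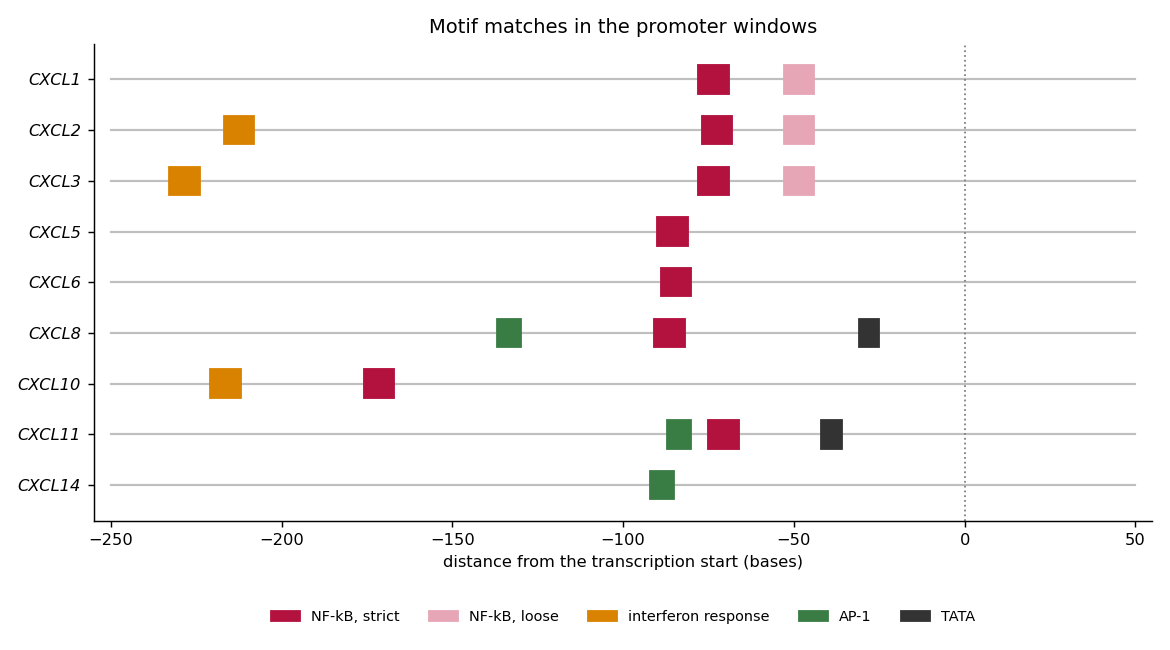
Motif matches in the RefSeq promoter windows of 9 CXC chemokines. The x axis is the distance from the transcription start in bases, each grey line is the window of a gene, and coloured boxes are matches to the motif named in the legend. The strict NF-kB motif lies between 75 and 91 bases before the start in 7 genes and 176 bases before it in *CXCL10*.

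Searching more loosely with GGNNTTTCC, which also takes every match of the stricter motif and was present in 6.26% of windows, gave a further match 53 bases before the start of *CXCL1*, *CXCL2* and *CXCL3*. The AP-1 motif TGANTCA, in 7.71% of windows, occurred in *CXCL8*, *CXCL11* and *CXCL14*, and it did not occur in the windows of *CXCL1*, *CXCL2* or *CXCL3*. The interferon response motif GAAANNGAA, in 8.11%, occurred in *CXCL2*, *CXCL3* and *CXCL10*. TATAAA, searched on the gene's own strand and found in 7.33%, occurred in *CXCL8* and *CXCL11*.

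The promoters fell into closely related sets. Over the 250 bases before the start, *CXCL5* and *CXCL6* were identical at 85.3% of aligned positions, *CXCL1* and *CXCL3* at 81.4%, *CXCL2* and *CXCL3* at 73.3% and *CXCL1* and *CXCL2* at 67.9%. The longest run shared by *CXCL5* and *CXCL6* was 45 bases and contained the motif. CG dinucleotides, the substrate of DNA methyltransferases, were similar in number within these sets. The 300-base windows of *CXCL1* and *CXCL2* each held 22 CG and that of *CXCL3* 24, compared with 9 in *CXCL5*, 8 in *CXCL6*, 4 in *CXCL8*, 3 in *CXCL10*, 0 in *CXCL11* and 31 in *CXCL14*. The median of all windows was 14.

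Intensities below are the background-corrected spot signals of the scanner output and are given in the order non-MG with vehicle, non-MG with 5-azacytidine, MG with vehicle and MG with 5-azacytidine. Log2 ratios were computed after the 75th percentile of each array, which was 87.0, 75.2, 98.7 and 96.4, had been subtracted on the log2 scale. A probe was measured on an array where its signal was well above background by the scanner's own flag, and the lowest such signal of an array lay between 9.95 and 11.8. Where a signal was not well above background, the fold is given as a bound against that limit. Errors after ± are spot errors, built from the SD between repeated spots of other probes of like intensity. They combine the arrays compared and, for a gene, are the error of the mean over its retained probes. They leave out disagreement between the probes of a gene and the variation between cultures and labellings.

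*CXCL1*, a strong neutrophil attractant, had intensities of 145, 1805, 146 and 4703 on probe A_23_P7144. Its other probe, A_33_P3330264, gave 20.8, 182, 36.5 and 577. Both probes were highest in treated MG cells, next in treated non-MG cells, and lower on both vehicle arrays.

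*CXCL2*, a close paralogue with the same receptor, had intensities of 27.7, 175, 31.0 and 884 on probe A_23_P315364. On probe A_24_P257416 they were 19.8, 97.4, 18.6 and 369. Treated MG cells were again highest and treated non-MG cells next, and the vehicle arrays did not keep the same order on both probes.

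*CXCL3*, the third of these paralogues, had a single probe with intensities of 17.8, 27.5, 8.44 and 118. It was not well above background in MG cells with vehicle and was brightest in treated MG cells. mRNAs of *CXCL1*, *CXCL2* and *CXCL3* are closely similar in sequence, and cross-hybridization between their probes was not tested, because probe sequences were not used here.

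*CXCL5*, which attracts and activates neutrophils from epithelium, was measured on 1 array only, with intensities of 9.26, 8.91, 5.84 and 46.8. *CXCL8*, the chemokine also called interleukin-8, had intensities of 2.70, 10.2, 2.27 and 38.6 and was measured on the arrays of treated cells only. In non-MG cells its signal barely exceeded the limit of 9.95. The single probe of *CXCL16* was bright on every array, with intensities of 419, 321, 400 and 382.

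For the remaining 4 genes no array gave a signal well above background. *CXCL6* stayed between 2.32 and 2.79, and the 2 probes of *CXCL10* between 2.20 and 2.78. Signals of *CXCL11* were 2.54, 4.96, 2.84 and 2.91, and those of *CXCL14* were 7.04, 2.08, 4.01 and 4.29. A low signal gives no lower limit on a transcript, so these genes were below what the arrays could measure.

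**Figure D2:**
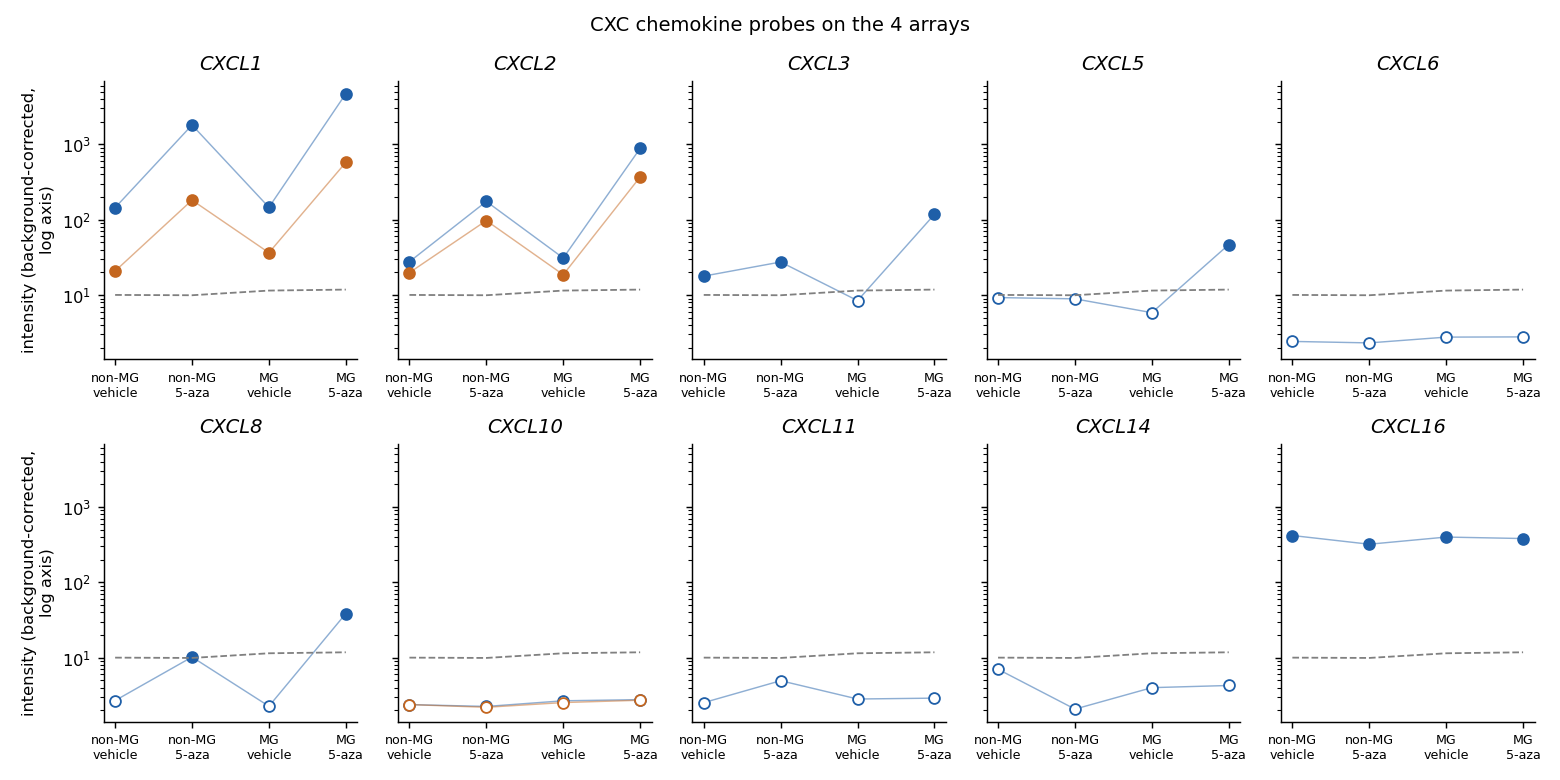
Intensity of every probe of the 10 CXC chemokines on the 4 arrays, on a log axis. Each panel is a gene, each colour a probe, filled points are well above background, open points are not, and the dashed line is the lowest signal well above background on each array. *CXCL1* and *CXCL2* are high in both treated cultures, *CXCL3*, *CXCL5* and *CXCL8* are highest in treated MG cells, and *CXCL16* is level.

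The comparison of 5-azacytidine with vehicle in MG cells was the one that chose the genes. There *CXCL2* had a log2 ratio of 4.60 ± 0.15, the largest of the 12120 genes with a symbol that were measured on all 4 arrays, and *CXCL1* one of 4.53 ± 0.08, which ranked 2. The separate probes gave 5.04 and 4.02 for *CXCL1* and 4.87 and 4.34 for *CXCL2*, further apart than these errors. *CXCL3* was at least 10.5-fold higher, *CXCL5* at least 4.18-fold and *CXCL8* at least 3.45-fold. The log2 ratio of *CXCL16* was -0.03 ± 0.09. Thus 5 of the 6 genes with a retained probe were higher past 1.5-fold and 0 were lower, beside 7.62% and 6.37% of all genes. *CXCL5* and *CXCL8* passed the filter through the treated arrays, so their presence among the higher genes follows from the filter as well as the choice.

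Non-MG cells give values on arrays that the choice did not use, and the same question, whether the chemokine transcripts differed under 5-azacytidine, can be asked of them. *CXCL1* was 12.1-fold higher in treated than in vehicle-treated non-MG cells, a log2 ratio of 3.60 ± 0.12 that again ranked 2 among the 12120 genes. *CXCL2* was 6.44-fold higher, with a log2 ratio of 2.69 ± 0.15, and ranked 5. These differences were many times the spot error, and the probes of each gene had the same direction, with 3.85 and 3.34 for *CXCL1* and 2.87 and 2.51 for *CXCL2*.

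*CXCL3* was 1.78-fold higher in treated non-MG cells, with a log2 ratio of 0.83 ± 0.28, and *CXCL8* was at least 1.18-fold higher. With normexp background correction, which here adds an offset to every signal, the log2 ratio of *CXCL3* was 0.26, that of *CXCL1* 2.41 and that of *CXCL2* 1.31. *CXCL5* was not well above background on either array of non-MG cells, and *CXCL16* had a log2 ratio of -0.17 ± 0.09. Counted past 1.5-fold on the signals as scanned, 4 of 6 genes were higher and 0 lower, where 6.01% and 4.58% of all genes were. *CXCL8* is among the 4 although it passed the filter through the treated arrays only and its bound falls short of 1.5-fold, and with dim signals set to the detection limit the count was 3, so nothing is read from these shares. Of the 3 genes measured on all 4 arrays, 2 were higher in each cell type, where 2.95% of the 15017 genes so measured were higher and 2.09% lower in MG cells and 1.85% were higher and 1.63% lower in non-MG cells.

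**Figure D3:**
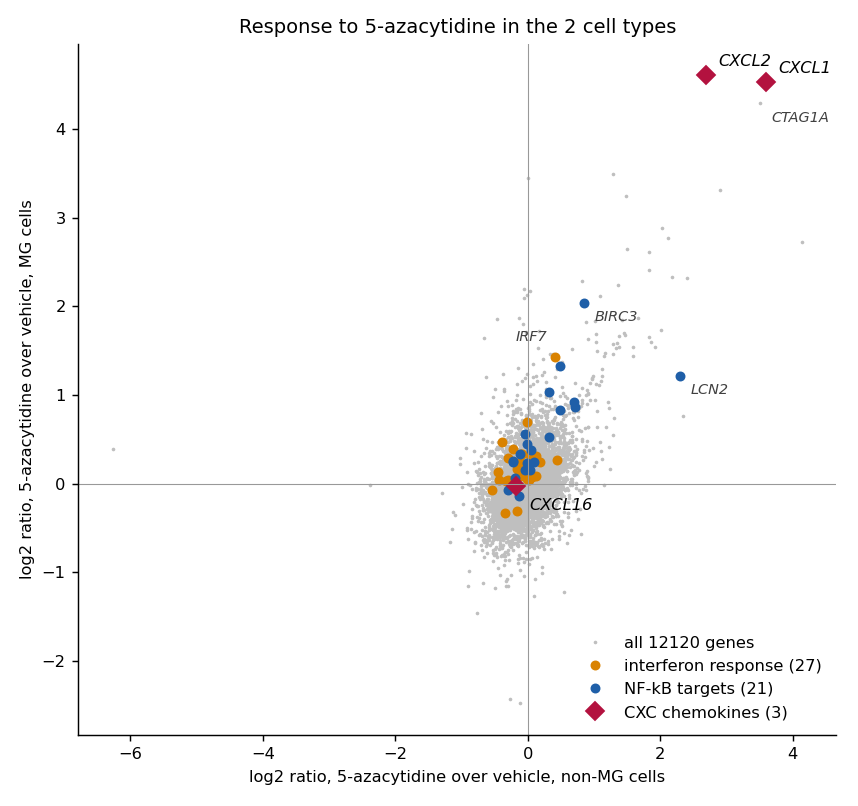
Log2 ratio of 5-azacytidine over vehicle in non-MG cells (x axis) and in MG cells (y axis) for the 12120 genes with a symbol measured on all 4 arrays, 1 array per condition. *CXCL1* and *CXCL2* lie in the upper right corner with *CTAG1A*, *CXCL16* lies near 0, and the lists of NF-kB targets and interferon response genes are coloured. The MG contrast chose the CXC chemokines.

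The ratio was larger in MG than in non-MG cells for *CXCL1*, *CXCL2* and *CXCL3*. Log2 ratios of *CXCL1* differed by 0.93 ± 0.14 between the cell types and those of *CXCL2* by 1.92 ± 0.21, and *CXCL2* ranked 12 and *CXCL1* ranked 95 by this difference among the 12120 genes. For *CXCL3* the ratio in MG cells was at least 5.90 times that in non-MG cells. The difference between the cell types could not be tested with 1 array per condition, and it rests on the arrays that chose the genes.

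With vehicle, *CXCL1*, *CXCL2* and *CXCL16* lay within 1.5-fold between the cell types. Between vehicle-treated MG and non-MG cells, *CXCL2* had a log2 ratio of -0.14 ± 0.20, within the spot error, and *CXCL16* one of -0.25 ± 0.09. The probes of *CXCL1* disagreed, with -0.17 ± 0.10 for A_23_P7144 and 0.63 ± 0.24 for A_33_P3330264. *CXCL3* was at least 1.76-fold lower in MG cells. By count, 0 of 6 genes were higher and 2 were lower, *CXCL3* and *CXCL5*, beside 8.24% and 12.6% of all genes, but *CXCL5* was not well above background on either array. These splits depend on the scaling, since with the array median subtracted in place of the 75th percentile 2985 genes were higher and 1449 lower with vehicle, 3947 and 1184 with 5-azacytidine, and 933 and 1272 for 5-azacytidine in non-MG cells, while the counts of chemokines stayed the same.

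Under 5-azacytidine the cell types stood apart. *CXCL1* was 2.24-fold and *CXCL2* 3.41-fold higher in MG than in non-MG cells, with log2 ratios of 1.16 ± 0.06 and 1.77 ± 0.07. *CXCL3* was 3.34-fold higher, *CXCL8* 2.94-fold and *CXCL5* at least 3.67-fold, while *CXCL16* had a log2 ratio of -0.11 ± 0.09. With normexp the log2 ratios of *CXCL8* and *CXCL5* were 0.28 and 0.47. Here 5 of 6 genes were higher and 0 lower, where 8.6% and 12.3% of all genes were. *CXCL5* passed the filter through the array of treated MG cells alone and *CXCL8* through the treated arrays alone, so nothing is read from this count. Both comparisons of the cell types share an array with the contrast that chose the genes. Each cell type had a row of the slide and each treatment a column, so slide position and these factors cannot be told apart.

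Profiles over the 4 arrays were also compared among genes measured on all of them. By Euclidean distance of centred log2 values from the mean profile of *CXCL1* and *CXCL2*, each of which lay 0.33 from it, the nearest of 12117 other genes were *CTAG1A* at 0.77, *LINC00958* at 0.91, *GCNA* at 1.49, *CT45A1* at 1.59 and *LY6K* at 1.80. *CTAG1A* and *CT45A1* are cancer-testis antigens, *GCNA* is a germ cell gene, *LY6K* encodes a cell surface protein of testis and tumours, and *LINC00958* is a long non-coding RNA. *CTAG1A* had intensities of 33.3, 328, 30.0 and 573, and its log2 ratios were 4.29 ± 0.21 in MG and 3.51 ± 0.15 in non-MG cells. *CTAG1A* and *CT45A1* each belong to sets of near-identical gene copies, so their signal may come from several of them.

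*CXCL8*, *CXCL6*, *CXCL1*, *CXCL5*, *CXCL3* and *CXCL2* lie in this order in a cluster at 4q13, with the EGF-like growth factor genes *EPGN*, *EREG*, *AREG* and *BTC* to one side. *EREG* and *AREG*, encoding epiregulin and amphiregulin, were bright on every array and had log2 ratios under 5-azacytidine of 0.12 ± 0.07 and 0.35 ± 0.06 in MG cells and of 0.05 ± 0.07 and 0.05 ± 0.05 in non-MG cells. *EPGN*, encoding epigen, was measured in treated MG cells alone, at least 1.55-fold higher than with vehicle, and *BTC*, encoding betacellulin, was at least 2.62-fold higher in MG and at least 1.07-fold higher in non-MG cells. *EPGN* and *BTC* were not well above background in either vehicle culture and passed the filter through treated arrays alone. Nothing is therefore read from their being higher.

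Among the other neighbours, the Ras-association gene *RASSF6* had log2 ratios of 0.18 ± 0.28 in MG and 0.74 ± 0.39 in non-MG cells, and the mitochondrial folate enzyme gene *MTHFD2L* had -0.15 ± 0.28 and -0.37 ± 0.39. *PARM1* had -0.57 ± 0.19 and -0.45 ± 0.16, and *ANKRD17* had -0.51 ± 0.20 and 0.11 ± 0.42. Of the 8 neighbours with a retained probe, out of 12 listed, 2 were higher and 0 lower past 1.5-fold in MG cells, and 1 was higher and 0 lower in non-MG cells. Of all genes, 7.62% were higher and 6.37% lower in MG cells and 6.01% and 4.58% in non-MG cells. The 2 higher in MG cells, *EPGN* and *BTC*, were not well above background in MG cells with vehicle. None of the 6 retained genes beside *CXCL10* and *CXCL11* at 4q21 passed 1.5-fold under 5-azacytidine in either cell type.

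**Figure D4:**
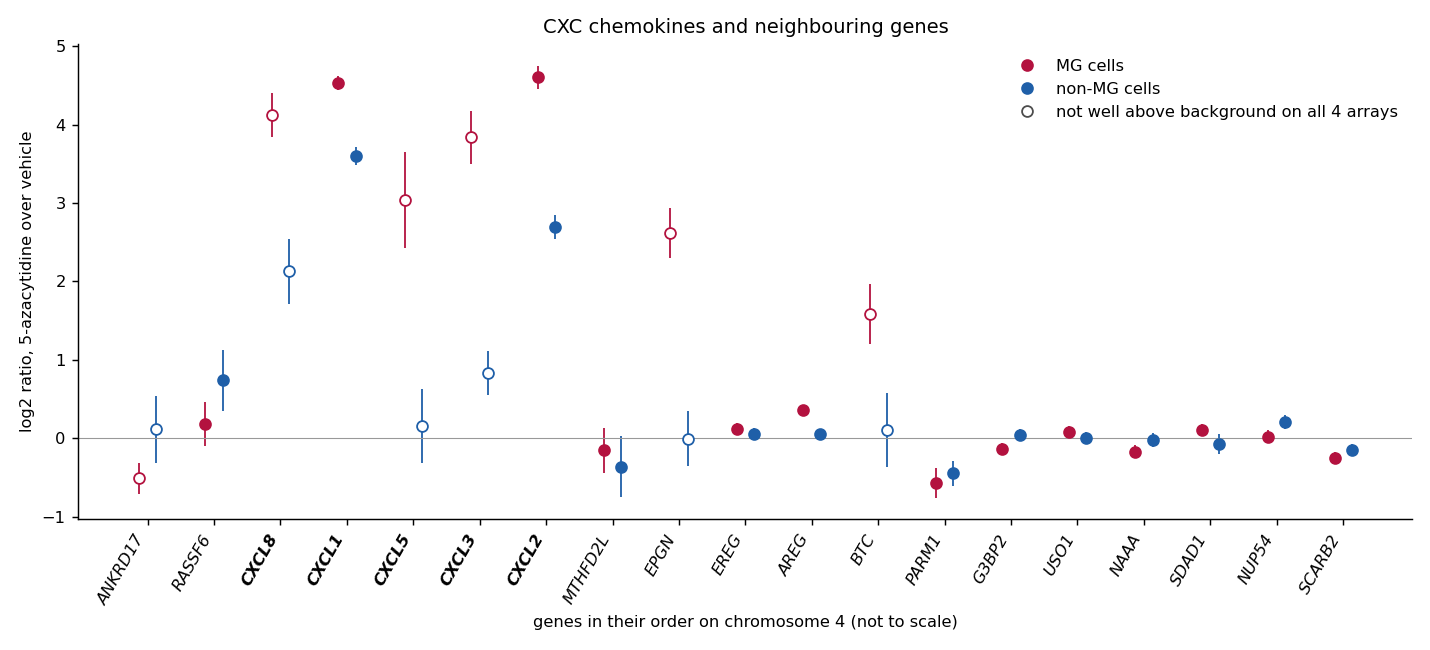
Log2 ratio of 5-azacytidine over vehicle for genes with a retained probe, in their order on chromosome 4 (x axis, not to scale), with spot error as bars. CXC chemokines are in bold, and open points mark genes not well above background on all 4 arrays, for which the ratio is not a measured fold. *CXCL1* and *CXCL2* are high in both cell types, and *EREG* and *AREG* lie near 0.

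The receptors through which these ligands act were mostly below measurement. *CXCR4*, the receptor of CXCL12, had intensities of 152, 109, 152 and 145, and 1 of the 2 probes of *CXCR3* had intensities of 39.1, 33.5, 42.0 and 40.4. Their log2 ratios under 5-azacytidine were -0.03 ± 0.10 and -0.02 ± 0.19 in MG cells and -0.26 ± 0.11 and -0.01 ± 0.19 in non-MG cells, so neither passed 1.5-fold. *CXCR1*, *CXCR2*, *CXCR5*, *CXCR6*, *ACKR1* and *ACKR3* were well above background on none of the arrays. The other CXC ligands, *CXCL9*, *CXCL12*, *CXCL13*, *CXCL17*, *PF4*, *PF4V1* and *PPBP*, likewise stayed below this level on every array, although *PF4V1*, *PF4* and *PPBP* lie within the 4q13 cluster.

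Of 27 chemokines of the CC, XC and CX3C families, 8 had a retained probe. *CCL20*, a ligand of CCR6 that epithelium also makes under NF-kB and which was singled out after its values were seen, had intensities of 7.54, 39.1, 6.50 and 154. It was thus measured in the treated cultures only and was at least 13.7-fold higher in MG and at least 4.52-fold higher in non-MG cells. The 4 chemokines measured on all 4 arrays were *CCL3*, *CCL15*, *CCL16* and *CCL24*. *CCL15* had a log2 ratio of -0.64 ± 0.39 in MG cells and was the only one of them past 1.5-fold in either cell type, and *CCL3* had 0.41 ± 0.12 in MG and 0.54 ± 0.16 in non-MG cells. Of all genes so measured, 2.95% were higher and 2.09% lower in MG cells and 1.85% and 1.63% in non-MG cells. With 4 genes, nothing is read from this count.

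Some of the listed targets of NF-kB were higher past 1.5-fold. Of 34 listed, 21 were measured on all 4 arrays, and 7 of them were higher and 0 lower past 1.5-fold in treated MG cells, with a median log2 ratio of 0.38. In non-MG cells 4 were higher and 0 lower, with a median of 0.03. The medians of the 15017 genes measured on all 4 arrays were -0.02 and -0.04. Of such genes, 2.95% were higher and 2.09% lower in MG cells, and 1.85% were higher and 1.63% lower in non-MG cells. The members of the list were chosen with earlier results of these arrays known, so nothing is read from its counts.

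*BIRC3*, an inhibitor of apoptosis, had intensities of 334, 520, 244 and 976, with log2 ratios of 2.03 ± 0.09 in MG and 0.85 ± 0.09 in non-MG cells. *ZC3H12A*, an endonuclease that degrades inflammatory mRNAs, had 93.3, 113, 82.0 and 201, with log2 ratios of 1.32 ± 0.11 and 0.48 ± 0.12. *TNFAIP3*, a ubiquitin-editing brake on NF-kB, had log2 ratios of 1.04 ± 0.24 and 0.31 ± 0.28. These genes had a larger ratio in MG than in non-MG cells, as the chemokines did. They were named for their ratio in MG cells and the chemokines were chosen on it, so nothing is read from this likeness.

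*LCN2*, a siderophore-binding protein of epithelia, ran the other way, with intensities of 20.8, 88.4, 238 and 540 and log2 ratios of 1.21 ± 0.09 in MG and 2.30 ± 0.22 in non-MG cells. Its level with vehicle was already 10.1-fold higher in MG cells. *NFKBIA*, the inhibitor that NF-kB induces first and which was named after its values were seen, had log2 ratios of 0.52 ± 0.07 and 0.32 ± 0.07.

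Components upstream of NF-kB were read in the same way. Of 33 listed genes of IL-1, TNF and Toll-like signalling, 21 were measured on all 4 arrays, and in MG cells 1 was higher, the kinase gene *IRAK2* at 0.61 ± 0.12, and 0 were lower, beside 2.95% and 2.09% of all genes so measured. In non-MG cells 0 were higher and 2 lower, beside 1.85% and 1.63%, 1 of them *TLR3*, the receptor of double-stranded RNA, at -0.93 ± 0.39, which had 0.57 ± 0.24 in MG cells. *MAP3K7*, the kinase TAK1, had 0.32 ± 0.09 and -0.02 ± 0.10, and *TLR5*, the flagellin receptor, -0.35 ± 0.27 and -0.02 ± 0.20.

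None of the 12 AP-1 and C/EBP genes, all measured on all 4 arrays, passed 1.5-fold under 5-azacytidine in either cell type. Of all genes so measured, 2.95% were higher and 2.09% lower in MG cells and 1.85% and 1.63% in non-MG cells. With 12 genes, nothing is read from this count. *JUN* had log2 ratios of 0.57 ± 0.10 and -0.18 ± 0.10, *CEBPA* 0.49 ± 0.10 and 0.20 ± 0.10, *ATF3* 0.36 ± 0.10 and 0.14 ± 0.10 and *JUND* 0.34 ± 0.11 and 0.03 ± 0.11. Between the cell types, however, 1 was higher and 5 were lower in MG cells with vehicle, where 5.67% of genes measured on all 4 arrays were higher and 8.05% lower. With 5-azacytidine the counts were again 1 and 5, beside 5.73% and 7.13%.

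Of 8 genes that control decay of chemokine mRNA, *ZC3H12A* alone passed 1.5-fold under 5-azacytidine, in MG cells. *AUH*, *ZFP36L2* and *ELAVL1*, which bind AU-rich mRNAs, had log2 ratios of -0.40 ± 0.08, 0.27 ± 0.11 and 0.15 ± 0.10 in MG cells. Among 6 genes for proteases that shed CXCL16 or trim chemokines, 0 passed 1.5-fold in MG cells and *MMP7*, encoding matrilysin, was lower in non-MG cells, at -1.03 ± 0.36. Both lists were measured on all 4 arrays, where 2.95% of genes were higher and 2.09% lower in MG cells. In non-MG cells 1.85% were higher and 1.63% lower, and with so few genes nothing is read from the counts of either list. *MMP9* had 0.35 ± 0.12, *DPP4* -0.30 ± 0.12 and *ADAM17* 0.22 ± 0.09 in MG cells.

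The interferon-induced chemokines *CXCL10* and *CXCL11* were below measurement, so other genes of the interferon response were read. Of 27 genes measured on all 4 arrays, 2 were higher and 0 lower in MG cells and 0 were higher or lower in non-MG cells, with medians of 0.16 and -0.12, where 2.95% and 2.09% of all genes so measured were higher and lower in MG cells and 1.85% and 1.63% in non-MG cells. *IRF7*, a transcription factor that amplifies the interferon response, had log2 ratios of 1.42 ± 0.09 and 0.41 ± 0.08, and *BST2*, encoding tetherin, 0.70 ± 0.11 and -0.01 ± 0.08. *IRF1* had 0.47 ± 0.12 and -0.39 ± 0.16, and *OASL* 0.39 ± 0.10 and -0.22 ± 0.10.

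**Figure D5:**
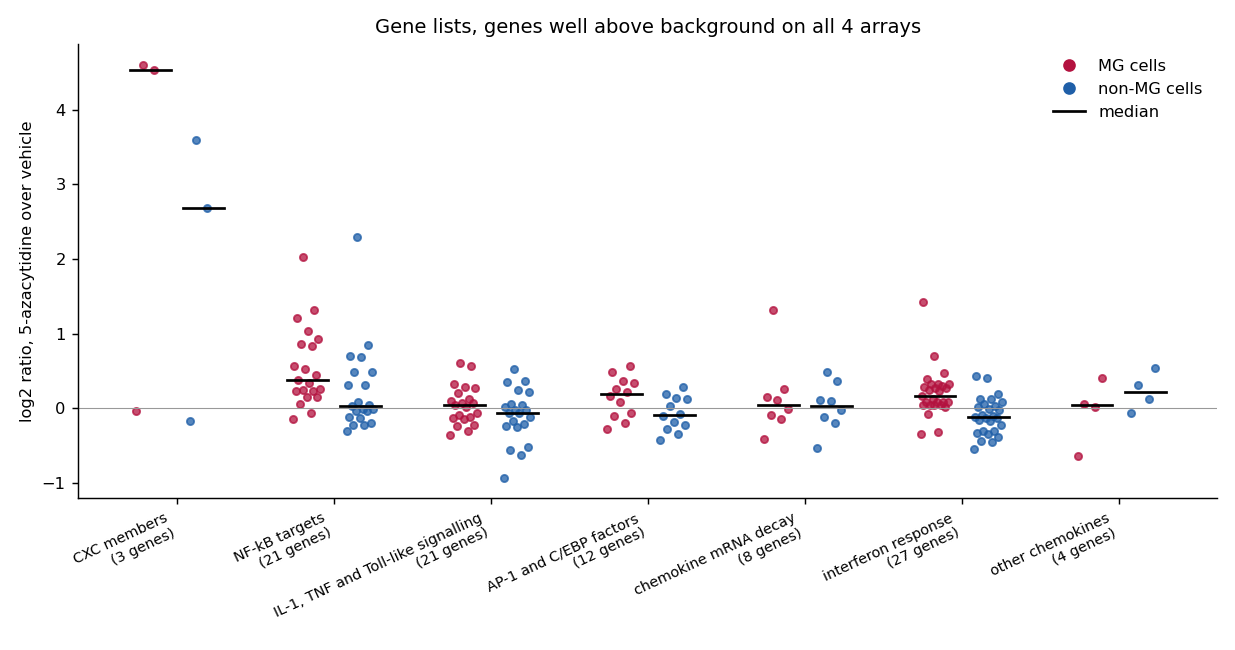
Log2 ratio of 5-azacytidine over vehicle for genes measured on all 4 arrays, by gene list, in MG and in non-MG cells, 1 array per condition. Points are genes and black lines are medians. *CXCL1* and *CXCL2* lie above every gene shown of the other lists in both cell types, and the median of the NF-kB targets is 0.38 in MG and 0.03 in non-MG cells. The MG contrast chose the CXC chemokines, so their place in MG cells follows from the choice. *CCL20*, not measured on all 4 arrays, is not shown.

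Neutrophils, macrophages, fibroblasts and endothelium also make or bind CXC chemokines, so markers were read on the same arrays. Of 12 colon epithelium markers, 9 were well above background on every array, *EPCAM*, *CDH1* and the keratins among them. The intestinal markers *VIL1*, *CDH17* and *LGALS4* were above it on none. The keratin gene *KRT20* had log2 ratios under 5-azacytidine of 1.85 ± 0.22 in MG and 1.42 ± 0.36 in non-MG cells. Of 11 leukocyte markers, 9 had a probe, and *LYZ* and *FCGR3B* could not be read because they had none. In the order above, 4, 4, 1 and 4 were well above background on the arrays, and the defining leukocyte gene *PTPRC* was above it on none. The summed intensity of the leukocyte list was 105, 151, 82.4 and 150. *CD14*, a co-receptor for lipopolysaccharide, had intensities of 17.1, 27.1, 13.5 and 26.3 and so moved with treatment. Of 7 fibroblast markers, 1, 2, 1 and 2 were above background, with a summed intensity of 111, 104, 81.3 and 99.7, and of 5 endothelial markers 1 was on each array, with 57.8, 42.7, 44 and 57.9. The part of these signals in the chemokine values was not tested. In a bulk culture more RNA per cell and more cells with the RNA cannot be told apart.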

How the data were processed

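RNA of HCT116 MG and non-MG cells given 5 µM 5-azacytidine or vehicle for 48 h was labelled with Cy3, 400 ng per array, and hybridized to 4 one-colour Agilent SurePrint G3 arrays lying on 1 slide. Per the labels the RNA was extracted with RNAiso Plus, while the methods of the study name an RNeasy kit. Scanner output of Agilent Feature Extraction 11.5.1.1 was deposited by the authors for every array, and it gives each spot a linear intensity from which background has been removed, not normalized between arrays, and quality flags. They also deposited a table of log2 values, made in GeneSpring after filtering on the lowest 20th percentile and on flags and centred per probe. It served as an alternative only.

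Here control spots and outlier spots were left out, the spots of a probe were averaged, and the 75th percentile over all probes of the array was subtracted from the log2 intensity. A probe was dropped if it fell in the lowest 20th percentile of at least 2 arrays or was nowhere well above background, which kept 23860 probes. Probes were named by matching accessions to the RefSeq annotation of GRCh38.p14, and a gene's ratio is the mean over its retained probes. Spot error was taken from probes with 10 spots per array, as the median SD between their spots at like intensity, and ran from 0.60 at log2 intensities of 2 to 3 down to 0.05 above 10. No spot was saturated. With 1 array per condition no test was made.

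The genes and the lists were chosen with earlier results of these data known. Of each list, at most 4 genes are named, those with the largest ratio in MG cells in either direction among genes measured on all 4 arrays, together with all receptors, other CXC ligands, measured neighbours at 4q13 and the 5 nearest profiles. *CCL20*, *NFKBIA* and the marker genes were named outside this rule. Protein sequences of the chemokines were not analysed here. Alternatives were normexp (offset 50), centring on the median, quantile normalization, other filters, a floor at the detection limit, use of the brightest probe, the authors' log2 values, and 2-fold or 3-fold as the threshold. The counting was tested on simulated data in which only bright genes were changed and checked, so that test does not cover dim probes. Python 3.11.15, numpy 2.4.6, pandas 2.3.3, matplotlib 3.10.9, R 4.3.3 and limma 3.58.1 were used.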

Additional observations from a re-analysis of the deposited data

How the results depend on the processing

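Among the log2 ratios of the 6 measured chemokines, 166 of 204 alternative values stayed within the spot error, 37 moved beyond it and 1 turned the direction of a ratio past 1.5-fold. That one was *CXCL5* in MG over non-MG cells under vehicle, which became 0.011 when signals were raised to the detection limit, and both signals were below that limit. The ratio of 5-azacytidine over vehicle ranged from 3.56 to 5.04 in MG and from 2.41 to 3.85 in non-MG cells for *CXCL1*, and from 2.93 to 4.87 and from 1.31 to 2.87 for *CXCL2*. The dim genes varied more. In MG cells *CXCL3* ranged from 1.49 to 3.84, *CXCL5* from 0.73 to 3.04 and *CXCL8* from 0.74 to 4.12, and under 5-azacytidine *CXCL8* in MG over non-MG cells ranged from 0.28 to 1.81. The lowest of each came from normexp, which here adds an offset to every signal. *CXCL16* in MG over non-MG cells under 5-azacytidine became 0.15 with median centring, which shifted the median of all genes to 0.25 in that comparison, to 0.17 under vehicle and to -0.13 for 5-azacytidine in non-MG cells.

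The number of chemokines past 1.5-fold depended on the dim genes. When probes had to be well above background on all 4 arrays it was 2 for 5-azacytidine in MG cells, 2 in non-MG cells, 0 between the cell types under vehicle and 2 under 5-azacytidine, with 3 genes left. With normexp it was 2 in non-MG cells, 0 under vehicle and 3 under 5-azacytidine. Under vehicle it was 1 when signals were set no lower than the detection limit, 1 at 2-fold and 0 at 3-fold, and under 5-azacytidine it was 3 at 3-fold. Counts of the gene lists stayed within 1.5 times the reported one in 308 of 440 alternatives. NF-kB targets past 1.5-fold numbered 6 in MG and 2 in non-MG cells with normexp, in place of 13 and 10 of the 28 with a retained probe. The 13 and the 10 both include *ICAM1*, *CSF2*, *TNF*, *SAA1*, *IL32* and *SAA2*, which neither vehicle culture showed above background. These genes passed the filter through treated cells only. In non-MG cells *ICAM1*, *CSF2*, *TNF* and *SAA1* were measured with neither treatment. Nothing is therefore read from the 13 and the 10. Genes higher past 1.5-fold, of all 18919, numbered 245 in MG and 100 in non-MG cells with normexp, in place of 1442 and 1137. The cause of these shifts was not tested. Blocking on slide was not run, since all arrays share 1 slide. No paired analysis was possible because each condition has 1 array.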
